A study of Mus musculus with 15 samples.

Results

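Hox, Meis and Pbx genes encode homeodomain transcription factors. The 8 genes described here are Hoxa5, Hoxa7, Hoxa9 and Hoxa10 of the HoxA cluster, Hoxb4 and Hoxb5 of the HoxB cluster, and the cofactor genes Meis1 and Pbx3. They were taken by symbol from a table of 35533 genes because they are known as genes whose action GFI1 opposes in leukemia. HOX proteins bind DNA together with MEIS and PBX proteins, which belong to the TALE class of homeodomain proteins, and this keeps stem cells and early progenitors in an immature state. In mouse myeloid progenitors, GFI1 is known as a repressor that holds down Hoxa9 and Meis1, and GFI1 and HOXA9 can compete for the same DNA sites.

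The levels were measured by bulk RNA-seq of poly(A) RNA from untreated murine HSCs, sorted from bone marrow by the surface phenotype Lin−, Sca1+, c-Kit+, CD150+ and CD48−. The 5 homozygous genotypes had 3 libraries each, 15 in all. Gfi1-KO mice lack Gfi1 (KO/KO). GFI1-KD mice carry human GFI1 in place of the murine gene at a lowered level of expression (KD/KD). GFI1-36N mice are labelled 36N/36N for a variant of human GFI1. GFI1-KI mice, named GFI1-36S in the titles, carry human GFI1 in the murine locus (KI/KI). Gfi1-WT mice carry murine Gfi1. The age of the mice and whether the libraries came from separate mice are not given in the sources used here, so that p-values measure the spread between libraries. The value columns carry only numbers and were paired with the sample titles by them, so a genotype here means a label. GFI1-KD was compared to GFI1-KI, Gfi1-KO to Gfi1-WT, GFI1-36N to GFI1-KI and GFI1-KI to Gfi1-WT to ask how GFI1 dose and allele bear on these genes. The comparisons that use GFI1-KI or Gfi1-WT share those control libraries.

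Libraries held 16.22 to 20.64 M estimated counts and 9415 to 15125 genes above 0, fewest in GFI1-36N replicate 3. Of all genes, 13358 passed a filter on low counts, the 8 genes among them. Libraries of a genotype differed widely, and edgeR put the common biological coefficient of variation at 1.39. Gfi1 itself was at or below 22.7 CPM (counts scaled to a library total of 1000000) in every library and at 6.25, 3.34 and 0 CPM in Gfi1-KO HSCs, against 0.276, 0 and 0 CPM in Gfi1-WT HSCs, so that it gives no check of the genotypes. The mouse transcript set does not hold human GFI1. Gfi1-KO replicate 2 stood apart. It had 1.30 CPM of Slamf1, which encodes CD150, and 502 CPM of Cd48, which the sort selects against. In the other 14 libraries Slamf1 was at 9.56 CPM or higher and Cd48 at 46.2 CPM or lower. GFI1-36N replicate 3 and GFI1-KD replicate 1 had the lowest correlation with the other libraries. In bulk RNA, fewer cells that express a gene cannot be told apart from less RNA per cell.

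Averaged over the 15 libraries and set against transcript length, Meis1 was by far the most abundant of the 8 genes, followed by Hoxa7, Hoxa9 and Hoxa10, and none of the 8 passed edgeR's test at an adjusted p of 0.05 in any comparison (0% of all genes passed in each). Meis1 averaged 591 ± 197 TPM (transcripts scaled to a total of 1000000, SD over 15 libraries), Hoxa7 31.1 ± 20.2 TPM, Hoxa9 29.2 ± 20.4 TPM and Hoxa10 16.6 ± 12.6 TPM. Hoxb5 averaged 12.8 ± 18.1 TPM, Pbx3 5.69 ± 7.02 TPM, Hoxa5 1.9 ± 2.13 TPM and Hoxb4 1.71 ± 2.84 TPM on the same scale. Of the neighbours in this order, Meis1 stood apart from Hoxa7 by more than their SD, while each later pair differed by less than the larger SD of the pair. Meis1, Hoxa7 and Hoxa9 were above 0 in all 15 libraries. Hoxa10 was at 0 in 1 library, Hoxb4, Hoxb5 and Pbx3 in 3 libraries each and Hoxa5 in 5 libraries. A 0 in 1 library still allows up to 3 counts, which come to 0.143 to 0.188 CPM, and this covers counting error only.

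**Figure D1:**
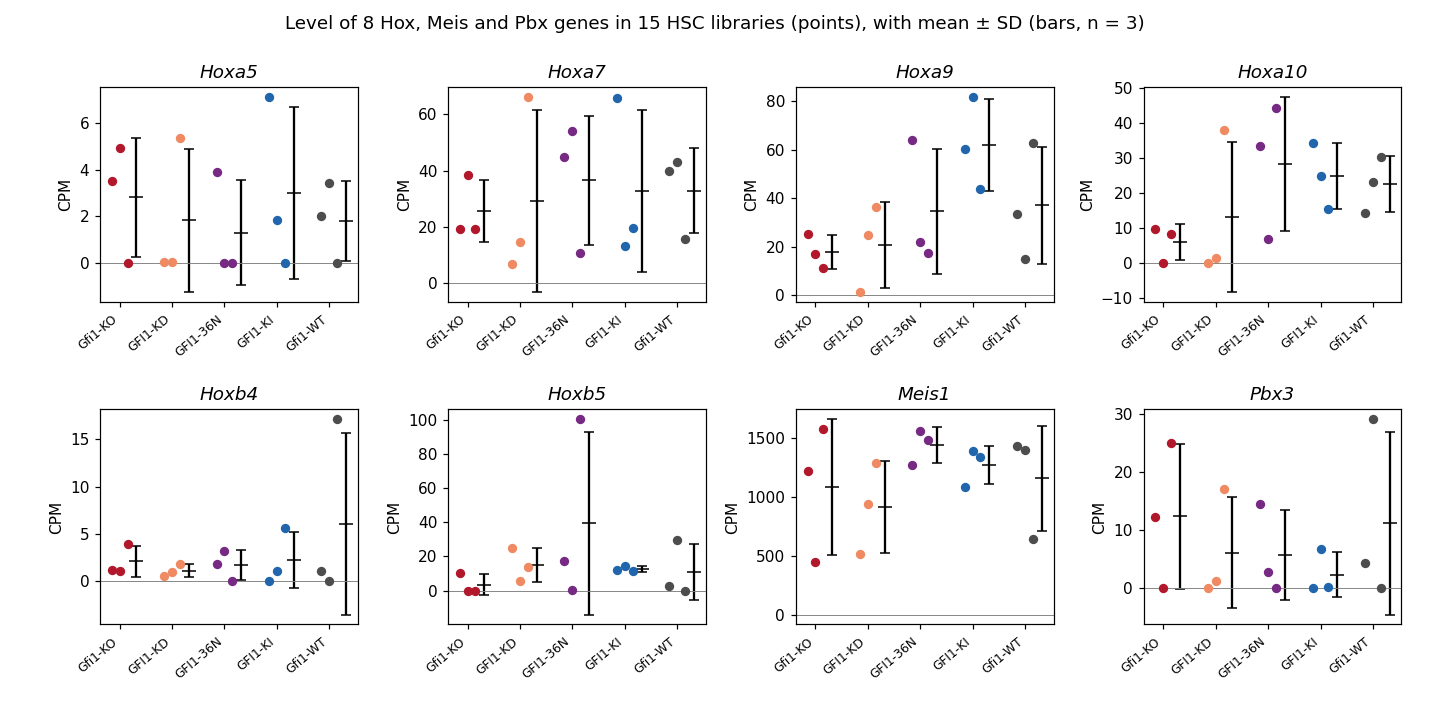
Level of each of the 8 genes in CPM (vertical axes, linear) by genotype. Points are libraries and bars the mean ± SD (n = 3). Hoxa9 lies lower in every GFI1-KD library than in every GFI1-KI library, Hoxa10 lies lower in every Gfi1-KO library than in every Gfi1-WT library, and Meis1 lies between 444 and 1570 CPM.

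The HoxA genes lie in a row on the minus strand of chromosome 6. Hoxa9 (ENSMUSG00000038227, chr6:52223100-52231089 of GRCm38 in GENCODE M21) supports the self-renewal of HSCs and transforms myeloid cells when it is overexpressed. Its level was 1.12, 24.7 and 36.2 CPM in GFI1-KD HSCs, against 60.2, 81.9 and 43.8 CPM in GFI1-KI HSCs. No GFI1-KD library thus reached the GFI1-KI range, as for 5.05% of all genes, and GFI1-KD replicate 1 lay far below the rest. The means were 20.7 ± 17.9 CPM in GFI1-KD and 62.0 ± 19.1 CPM in GFI1-KI (SD, n = 3 each). The log2 fold change was −1.59 with a standard error of 1.09, which did not pass (95% interval −3.93 to 0.76, adjusted p = 1 from edgeR), and without GFI1-KD replicate 1 it was −1.03.

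In Gfi1-KO HSCs Hoxa9 was at 25.2, 16.9 and 11 CPM, against 33.7, 14.7 and 62.6 CPM in Gfi1-WT HSCs. Here Gfi1-WT replicate 2 lay below Gfi1-KO replicates 1 and 2, so that the groups overlapped (log2 fold change −1.06, standard error 1.07, 95% interval −3.38 to 1.25, adjusted p = 1 from edgeR). Without Gfi1-WT replicate 3, the highest of these 6 libraries, the value was −0.41. In GFI1-36N HSCs it was at 64.1, 22.1 and 17.4 CPM, where only replicate 1 reached the range of GFI1-KI (log2 fold change −0.84, standard error 1.07), and the value was −0.52 without GFI1-36N replicate 3 and −1.65 without GFI1-36N replicate 1. By genotype the mean level ran GFI1-KI 62.0, Gfi1-WT 37.0, GFI1-36N 34.5, GFI1-KD 20.7 and Gfi1-KO 17.7 CPM. Only the step between GFI1-KI and Gfi1-WT was larger than the larger SD of its pair, and even those libraries overlapped.

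Hoxa10 (ENSMUSG00000000938, chr6:52231197-52240854) lies next to Hoxa9 and acts in early myeloid and megakaryocytic progenitors. It was at 9.70, 0 and 8.08 CPM in Gfi1-KO HSCs, against 14.2, 23.0 and 30.2 CPM in Gfi1-WT HSCs. Each Gfi1-KO library lay below each Gfi1-WT library, as for 4.9% of all genes. The log2 fold change was −1.92 with a standard error of 1.91, and it did not pass (95% interval −6.05 to 2.21, adjusted p = 1 from edgeR). Without Gfi1-KO replicate 2 it was −1.31. In GFI1-KD HSCs Hoxa10 was at 0.0592, 1.29 and 37.9 CPM, against 34.1, 24.8 and 15.5 CPM in GFI1-KI HSCs. GFI1-KD replicate 3 thus lay above every GFI1-KI library and the other 2 far below them, and the fitted difference was −0.92 with a standard error of 1.86. It was −5.18 without GFI1-KD replicate 3, −0.34 without GFI1-KD replicate 1 and −0.40 without GFI1-KD replicate 2. GFI1-36N HSCs had 33.4, 6.89 and 44.2 CPM, above and below the range of GFI1-KI.

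Hoxa7 (ENSMUSG00000038236, chr6:52214491-52221854), which acts in early megakaryocytic and erythroid progenitors, was present in every library. It was at 6.74, 14.5 and 66.2 CPM in GFI1-KD HSCs, against 65.8, 13.1 and 19.7 CPM in GFI1-KI HSCs. It was at 19.4, 38.5 and 19.3 CPM in Gfi1-KO HSCs, against 39.8, 43.2 and 15.8 CPM in Gfi1-WT HSCs. In each genotype of these 4, 1 library lay far from the other 2, and both pairs of groups overlapped (log2 fold changes −0.17 and −0.36, standard error 1.05 in each). GFI1-36N HSCs had 44.8, 54.2 and 10.7 CPM, with a fitted difference of 0.15 from GFI1-KI (standard error 1.05). Hoxa5 (ENSMUSG00000038253, chr6:52201754-52204587), which in human progenitors favours myeloid over erythroid cells, was at 7.12 CPM or lower throughout. It was at 0.0592, 0.0474 and 5.37 CPM in GFI1-KD HSCs, against 7.12, 1.87 and 0 CPM in GFI1-KI HSCs. In Gfi1-KO HSCs it was at 3.51, 4.93 and 0 CPM, against 2.02, 3.43 and 0 CPM in Gfi1-WT HSCs. In GFI1-36N HSCs it was at 3.91, 0 and 0 CPM. Hoxa5 was thus at or near 0 in at least 1 library of each genotype, and its largest fitted difference in these comparisons carried a standard error above its own size.

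The sum over the 11 HoxA genes was 59.9, 60.5 and 38.4 CPM in Gfi1-KO HSCs, against 89.8, 84.4 and 109 CPM in Gfi1-WT HSCs. It was 7.98, 40.5 and 150 CPM in GFI1-KD HSCs, against 168, 131 and 79.0 CPM in GFI1-KI HSCs. The Gfi1-KO libraries all lay below the Gfi1-WT libraries, as for 4.9% of single genes, while the GFI1-KD libraries overlapped with GFI1-KI. The sum contains Hoxa10, so that it is not a result separate from that gene. The 4 HoxA genes described here held 98.7% of the sum over all libraries, and no test was made of it. The other 7 HoxA genes had low counts, 5 of them above 0 in some library and 0 of them past the filter. The most abundant were Hoxa3, at 4.78 CPM or lower, and Hoxa4, at 3.72 CPM or lower.

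The stretches of 250 bases upstream of annotated starts are shown for Hoxa9 and for 2 RefSeq starts of Hoxa10, the genes whose libraries did not overlap, with each match to AATC or its complement GATT in capitals, the core that GFI1 is known to bind. They come from RefSeq on GRCm38.p6 and read 5′ to 3′ on the minus strand, from chr6:52227371-52227620 (Hoxa9), chr6:52234940-52235189 (Hoxa10, downstream start) and chr6:52240855-52241104 (Hoxa10, upstream start).
Hoxa9: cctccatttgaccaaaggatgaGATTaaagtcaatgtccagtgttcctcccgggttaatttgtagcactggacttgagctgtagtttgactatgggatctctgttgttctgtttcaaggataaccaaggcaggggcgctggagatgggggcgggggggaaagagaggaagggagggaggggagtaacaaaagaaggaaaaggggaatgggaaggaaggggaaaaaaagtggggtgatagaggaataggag
Hoxa10 downstream start: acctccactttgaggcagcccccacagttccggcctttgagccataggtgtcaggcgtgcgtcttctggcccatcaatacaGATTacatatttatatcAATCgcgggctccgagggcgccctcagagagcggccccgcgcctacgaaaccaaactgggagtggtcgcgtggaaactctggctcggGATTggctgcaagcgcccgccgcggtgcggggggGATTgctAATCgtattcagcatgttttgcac
Hoxa10 upstream start: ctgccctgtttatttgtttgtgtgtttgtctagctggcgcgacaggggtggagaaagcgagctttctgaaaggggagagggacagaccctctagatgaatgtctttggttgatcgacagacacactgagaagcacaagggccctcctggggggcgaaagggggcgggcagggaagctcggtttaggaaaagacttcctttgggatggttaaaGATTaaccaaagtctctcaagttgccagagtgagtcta

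The Hoxa9 stretch held 1 match and that of the upstream Hoxa10 start 1 match, whereas the downstream Hoxa10 start had 5, at −169, −152, −65, −31 and −24 from the start. Of 32851 such stretches of all genes, 69.0% held the core on either strand and 2.38% held at least 5 matches. Of the 8 genes, 6 had 7 stretches in the table, and those of Hoxa5, Hoxb4 and Meis1 had no match while Hoxa7 had 1. Longer motifs were searched on both strands as well. AAATCA, which contains the core, is in 12.4% of all stretches, TGATTTAT of HOXA9 with PBX, which overlaps with both, in 0.837%, and TGACAG of MEIS in 15.9%. None of these 3 was found in the 7 stretches of the 8 genes. A match is a run of letters, and binding was not measured.

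Most of the Hoxa10 counts came from a transcript that begins at neither of the starts shown. Hoxa10-203, an annotated processed transcript (chr6:52231199-52233324, minus strand), held 77.9% of the estimated counts of Hoxa10 over all libraries. It had 164, 0 and 148 counts in Gfi1-KO HSCs, against 254, 296 and 325 counts in Gfi1-WT HSCs. The coding transcript Hoxa10-202, from the downstream start, was at 0 in all 3 Gfi1-KO libraries and at 0, 126 and 248 counts in Gfi1-WT HSCs. Gfi1-WT replicate 1 thus also had none. Hoxa10-201, from the upstream start, was above 0 in 2 of 15 libraries, with 97.3 counts in GFI1-KD replicate 3 and 386 counts in GFI1-36N replicate 3. In GFI1-36N replicate 3 it made up 65.2% of Hoxa10. Reads in shared exons are divided between transcripts by a model, so that these shares are estimates.

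Hoxa9 was carried by its coding transcript Hoxa9-201, with 70.0% of the estimated counts over all libraries. A retained intron transcript, Hoxa9-205 (chr6:52228247-52230532), made up 13.1%, and its exon contains Mir196b. The gene of this microRNA (chr6:52230081-52230165), a known target of GFI1 in mouse myeloid progenitors, thus lies within the annotated span of Hoxa9. Its mature form is shown because the transcript spans it, with the seed (bases 2 to 8) in capitals, and the microRNA itself was not measured in poly(A) RNA.
mmu-miR-196b-5p: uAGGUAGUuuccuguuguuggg

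Hoxa9-205 had 0, 6.17 and 92.1 estimated counts in GFI1-KD HSCs, against 6.17, 34.4 and 297 counts in GFI1-KI HSCs. It had 33.1, 0 and 71.7 counts in Gfi1-KO HSCs, against 145, 57.3 and 74.2 counts in Gfi1-WT HSCs, and 263, 50.1 and 211 counts in GFI1-36N HSCs. These groups overlapped. In GFI1-36N replicate 3 it made up 86.7% of Hoxa9 and the coding Hoxa9-201 was at 0, unlike in the other 14 libraries. Hoxa7 also varied in its transcripts, with 61.8% of its counts from Hoxa7-201 over all libraries. Its nonsense-mediated decay transcript Hoxa7-205 held 100% in GFI1-36N replicate 3 and 75.4% in GFI1-KD replicate 2, against 3.27% in the median library.

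**Figure D2:**
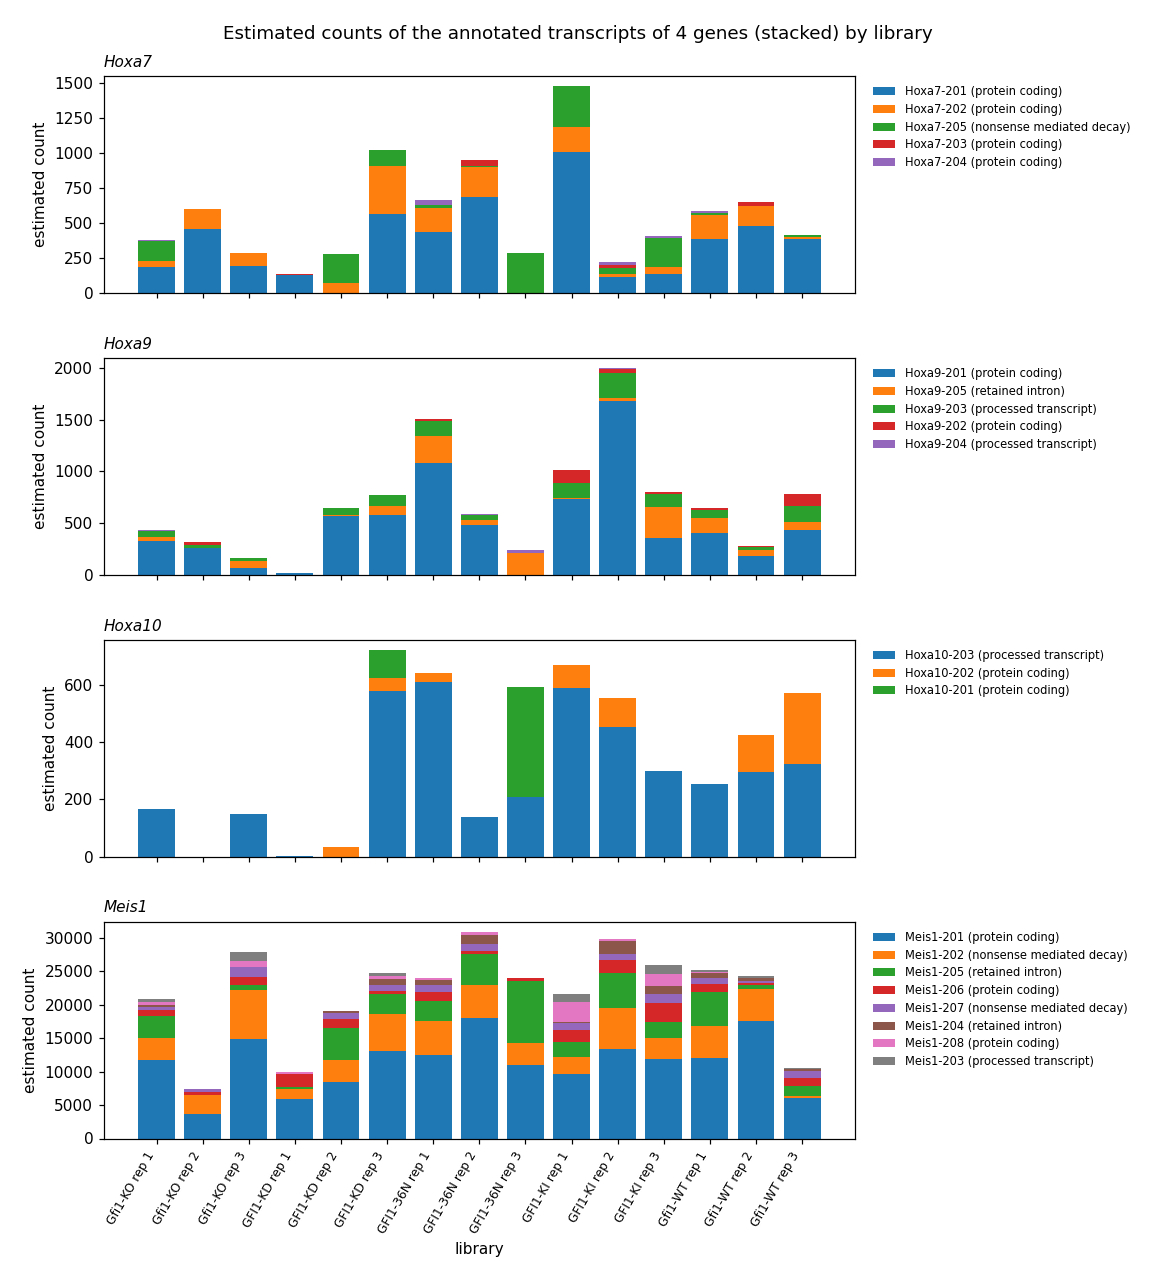
Estimated counts (vertical axes, linear) of the annotated transcripts of Hoxa7, Hoxa9, Hoxa10 and Meis1, stacked for each of the 15 libraries (horizontal axis). Hoxa10 was read mainly from Hoxa10-203 and was absent or nearly so in Gfi1-KO replicate 2 and GFI1-KD replicate 1, and Meis1-201 was the leading Meis1 transcript in every library.

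Hoxb4 (ENSMUSG00000038692, chr11:96318267-96321638, plus strand), which expands HSCs when it is overexpressed, was low. It was at 0.543, 0.920 and 1.83 CPM in GFI1-KD HSCs, against 0, 1.04 and 5.58 CPM in GFI1-KI HSCs. It was at 1.16, 1.10 and 3.94 CPM in Gfi1-KO HSCs, against 1.02, 0 and 17.1 CPM in Gfi1-WT HSCs. The highest value of all stood in Gfi1-WT replicate 3, next to a library of the same genotype at 0, and the groups overlapped. GFI1-36N HSCs had 1.78, 3.18 and 0 CPM, within the range of GFI1-KI, with a fitted difference of −0.43 (standard error 2.25). The fitted differences of −1.0 (standard error 2.27) in GFI1-KD and −1.54 (standard error 2.30) in Gfi1-KO HSCs did not pass (adjusted p = 1 from edgeR). Without Gfi1-WT replicate 3 the difference in Gfi1-KO was 2.07.

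Hoxb5 (ENSMUSG00000038700, chr11:96303336-96306121), known in mice as a marker of long-term HSCs, had a coefficient of variation of 154% over the 15 libraries, against 31.7% for Meis1. It was at 25.2, 5.53 and 13.7 CPM in GFI1-KD HSCs, against 12.2, 14.5 and 11.2 CPM in GFI1-KI HSCs. In Gfi1-KO HSCs it was at 10.4, 0 and 0 CPM, against 2.92, 29.5 and 0 CPM in Gfi1-WT HSCs. GFI1-KI libraries lay close together, whereas those of the other 4 genotypes lay far apart. In GFI1-36N HSCs it was at 17.5, 0.367 and 100.2 CPM, the last in the replicate 3 that stood apart. The fitted difference was 0.23 (standard error 2.38) in GFI1-KD, −1.63 (standard error 2.45) in Gfi1-KO and 1.64 (standard error 2.44) in GFI1-36N HSCs (adjusted p = 1 from edgeR). Of the Hoxb5 counts of GFI1-KI replicate 1, 99.0% were assigned to the retained intron transcript Hoxb5-202, which was at 0 in 12 libraries. Summing the transcript values instead gave 15.9 CPM for the GFI1-KI mean in place of 12.7 CPM. The strand setting of the counts is not given in the sources used here, so that antisense transcripts of the Hox clusters could not be told apart from the genes.

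Of the other 8 HoxB genes 6 were above 0 in some library and 3 were tested. Of these 3, 0 passed in edgeR, DESeq2 or limma-trend in any comparison. At an unadjusted p under 0.05 edgeR had 0 of them in each comparison (2.09% to 4.6% of all genes). DESeq2 had 1 of the 3 at that level, for the difference of GFI1-KD and Gfi1-KO, and limma-trend had 0. For these tools the share of all genes at that level is not given here. Hoxb3 was at 0.184, 11.4 and 0.900 CPM in GFI1-KD HSCs, against 1.03, 7.22 and 0.665 CPM in GFI1-KI HSCs. It was at 7.33, 26.3 and 0.545 CPM in Gfi1-KO HSCs, against 9.31, 8.90 and 0.742 CPM in Gfi1-WT HSCs, so that both pairs of groups overlapped. Hoxb2 was above 0 in 4 libraries, with 13.1 CPM in GFI1-36N replicate 2 as the highest value. Hoxb8, named here after its values were seen, was at 17.0 CPM in GFI1-KI replicate 1 and at 0 in all other libraries. Of 9 HoxC genes 3 were above 0 in some library, led by Hoxc9 and Hoxc10, and of 9 HoxD genes 1 was, Hoxd11. HoxC genes summed to at most 2.22 CPM and HoxD genes to at most 0.201 CPM in a library, and 0 of them were tested. A list of 9 noncoding Hox transcripts had 0 symbols in the table.

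Meis1 (ENSMUSG00000020160, chr11:18879817-19018985, minus strand) encodes a TALE cofactor of HOX proteins that maintains HSCs in adult mice. It was at 512, 937 and 1288 CPM in GFI1-KD HSCs, against 1083, 1387 and 1334 CPM in GFI1-KI HSCs. GFI1-KD replicates 1 and 2 lay below all GFI1-KI libraries and replicate 3 within their range. The means were 912 ± 389 CPM in GFI1-KD and 1268 ± 162 CPM in GFI1-KI (SD, n = 3 each). The log2 fold change of −0.48 (standard error 0.42, 95% interval −1.39 to 0.44) did not pass (adjusted p = 1 from edgeR), and it was −0.19 without GFI1-KD replicate 1 and −0.81 without GFI1-KD replicate 3.

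In Gfi1-KO HSCs Meis1 was at 1221, 444 and 1570 CPM, against 1431, 1396 and 641 CPM in Gfi1-WT HSCs. Gfi1-KO replicate 2 had the lowest value of all 15 libraries and Gfi1-KO replicate 3 the highest, so that the groups overlapped. The log2 fold change was −0.10 (standard error 0.42, 95% interval −1.02 to 0.81), and without Gfi1-KO replicate 2 it turned to 0.30. It also turned without Gfi1-WT replicate 1, to 0.093, and without Gfi1-WT replicate 2, to 0.11. GFI1-36N HSCs had 1268, 1559 and 1481 CPM, which was near GFI1-KI (log2 fold change 0.18, standard error 0.42, 95% interval −0.74 to 1.09). GFI1-KI exceeded Gfi1-WT by 0.13 (standard error 0.42), and without Gfi1-WT replicate 3 the value turned to −0.15. By genotype the mean level ran GFI1-36N 1436, GFI1-KI 1268, Gfi1-WT 1156, Gfi1-KO 1079 and GFI1-KD 912 CPM. Only the first of these steps exceeded the larger SD of its pair, and those libraries overlapped.

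The low Meis1 value of Gfi1-KO replicate 2 stood beside low HSC markers and high progenitor markers. In this library 9 of 10 HSC markers were above 0 and summed to 296 CPM, against 885 to 1685 CPM in the other 14 libraries. All 6 markers of multipotent progenitors (MPP) were above 0 and summed to 5223 CPM, against 150 to 1380 CPM elsewhere. Mpo held 2382 CPM of this sum, Cd34 1620 CPM and Ctsg 340 CPM. Mpo and Ctsg are also among the granulocyte markers below, so that the MPP and granulocyte sums are not separate results. By genotype the MPP sum was 308 to 5223 CPM in Gfi1-KO, 593 to 783 in GFI1-KD, 273 to 326 in GFI1-36N, 434 to 1380 in GFI1-KI and 150 to 464 in Gfi1-WT HSCs. Mpo, the myeloperoxidase gene of granulocytic precursors, was at 2382 CPM in this library. It was at 839 CPM in GFI1-KI replicate 2, where the MPP sum was 1380 CPM and Meis1 was at 1387 CPM. The part of these cells in the Meis1, Hoxa10, Hoxb5 and Pbx3 values of Gfi1-KO replicate 2, of which the last 3 were at 0, was not tested.

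The low Meis1 values of GFI1-KD replicate 1 and Gfi1-WT replicate 3 stood beside other marker levels. HSC markers summed to 1334 CPM and MPP markers to 712 CPM in GFI1-KD replicate 1, and to 885 CPM and 150 CPM in Gfi1-WT replicate 3, which had the lowest sums among the 14 libraries other than Gfi1-KO replicate 2. Of the other marker lists, Gfi1-KO replicate 2 was above the range of the 14 libraries for granulocytes (3403 against 56.0 to 1359 CPM), mast cells (1883 against 0 to 377), erythroid cells (824 against 26 to 326) and B cells (2439 against 953 to 1570). It was above it also for monocytes (1083 against 308 to 952 CPM), T and NK cells (968 against 208 to 725) and endothelium (375 against 51.8 to 196). It was below it for megakaryocytes (37.6 against 322 to 2599 CPM) and within it for stroma (23.2 against 0.225 to 48.1). Prss34 held 1060 CPM of the mast cell sum in Gfi1-KO replicate 2 and Cpa3 463 CPM, while Tpsb2 was at 0. The names of the lists are labels, and which cell types gave these values was not tested.

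Meis1 was read from 8 transcripts above 0. The coding Meis1-201 held 52.1% of the estimated counts, the nonsense-mediated decay transcript Meis1-202 held 18.0% and the retained intron transcript Meis1-205 held 14.2% over all libraries. Meis1-201 made up 49.2% of the gene in Gfi1-KO replicate 2 and 45.7% in GFI1-36N replicate 3, within the range of 44.3% to 72.3% over the 15 libraries. Meis1-205 was at 0 in Gfi1-KO replicate 2 and made up 38.8% of the gene in GFI1-36N replicate 3, its lowest and highest share.

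Pbx3 (ENSMUSG00000038718, chr2:34171457-34373142, minus strand) encodes a TALE protein that acts with HOXA9 in leukemia cells. It was at 0.137, 1.18 and 17.1 CPM in GFI1-KD HSCs, against 0, 6.78 and 0.279 CPM in GFI1-KI HSCs. It was at 12.3, 0 and 24.9 CPM in Gfi1-KO HSCs, against 4.35, 29.1 and 0.0398 CPM in Gfi1-WT HSCs. It was at 14.5, 2.80 and 0 CPM in GFI1-36N HSCs. In every genotype Pbx3 was thus at or near 0 in at least 1 library, next to a library of the same genotype with 6.78 CPM or more. The fitted differences were 1.38 (standard error 2.75) in GFI1-KD, 0.15 (standard error 2.70) in Gfi1-KO and 1.29 (standard error 2.75) in GFI1-36N HSCs, and −2.24 (standard error 2.83) between GFI1-KI and Gfi1-WT, and none passed (adjusted p = 1 from edgeR). Its largest transcripts were the coding Pbx3-202, with 65.4% of the counts, and the coding Pbx3-201, with 29.0%. Pbx3-201 was at 0 in all 3 Gfi1-KO libraries, and in Gfi1-WT HSCs it had 11.9, 315 and 0 counts.

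**Figure D3:**
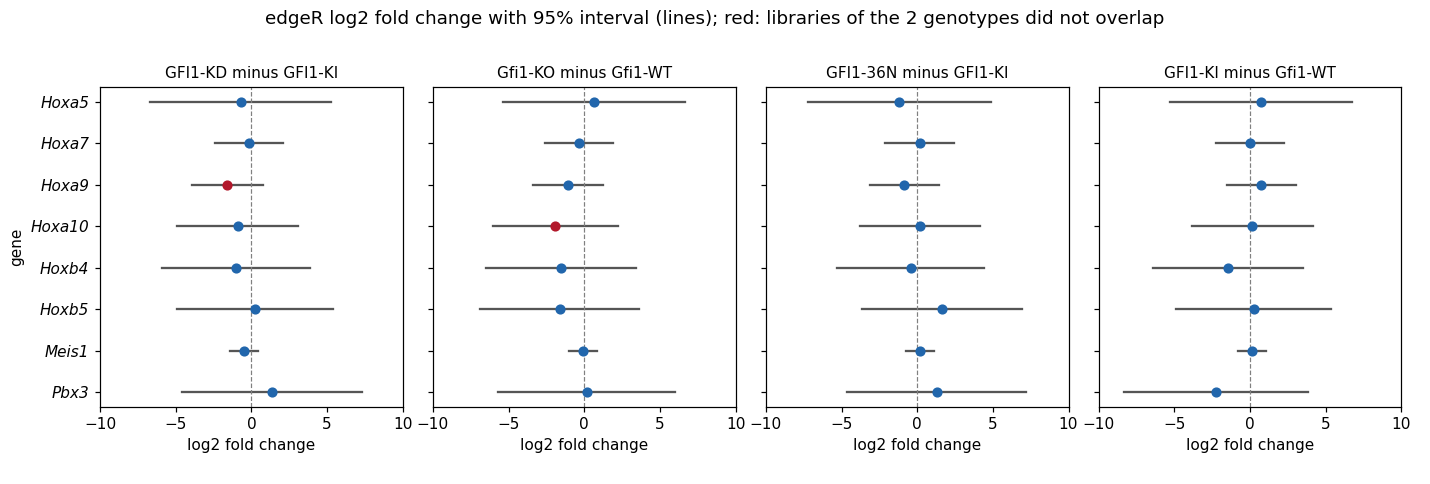
Log2 fold change of the 8 genes (rows) in 4 comparisons (panels), from edgeR, with 95% intervals as lines. Red points mark Hoxa9 for GFI1-KD against GFI1-KI (−1.59) and Hoxa10 for Gfi1-KO against Gfi1-WT (−1.92), whose libraries did not overlap. All intervals include 0, and those of Meis1 are the narrowest.

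Counted together, none of the 8 genes passed a test of edgeR between genotypes, at either level. For GFI1-KD against GFI1-KI 0 of 8 genes passed an adjusted p of 0.05 in edgeR (0% of all 13358 genes) and 0 an unadjusted p of 0.05 (2.49% of all genes). For Gfi1-KO against Gfi1-WT 0 passed at the adjusted level (0% of all genes) and 0 at the unadjusted level (3.07% of all genes). The same counts of 0 and 0 came from GFI1-36N compared to GFI1-KI (0% and 4.6% of all genes) and from GFI1-KI compared to Gfi1-WT (0% and 2.09% of all genes). DESeq2 called 0 of the 40 values of the 8 genes, although it called 181, 196, 364 and 146 genes in these 4 comparisons. Limma-trend also called 0 of the 40, with a lowest adjusted p of 0.865. Hoxa9 in GFI1-KD was the only 1 of the 40 at an unadjusted p under 0.05 (0.048 from limma-trend, log2 difference −2.55). The share of all genes at that level in limma-trend is not given here, so this 1 value is not read as a result.

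Of the 8 genes 6 had a fitted level that was lower for GFI1-KD than for GFI1-KI (median log2 fold change −0.59), and 6 one that was lower in Gfi1-KO than in Gfi1-WT (median −0.71). In GFI1-KD libraries 1 of 8, Hoxa9, lay wholly below GFI1-KI (5.05% of all genes) and 0 lay wholly above (4.04%). In Gfi1-KO libraries 1 of 8, Hoxa10, lay wholly below Gfi1-WT (4.9% of all genes) and 0 wholly above (4.04%). In GFI1-36N 0 of 8 lay wholly below (6.27%) or above GFI1-KI (3.3%), and in GFI1-KI 0 lay wholly below (4.18%) or above Gfi1-WT (4.46%). For GFI1-36N against GFI1-KI the median was 0.17 with 5 of 8 genes higher, and for GFI1-KI against Gfi1-WT it was 0.14 with 5 higher. The differences of GFI1-KI from Gfi1-WT ran between −2.24 for Pbx3 and 0.74 for Hoxa9 (standard error 1.07). Over all 13358 genes the medians of these 4 comparisons were 0, −0.03, −0.08 and 0. A count of 1 gene in 8 does not set the genes apart from the background.

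Whether the 8 genes responded differently to reduced and lost GFI1 was tested directly as the difference of the effects of GFI1-KD and Gfi1-KO. It ran between −1.36 for Hoxa5 (standard error 3.92) and 1.86 for Hoxb5 (standard error 3.40), and was −0.37 for Meis1 (standard error 0.60, 95% interval −1.67 to 0.92). None of the 8 passed at an adjusted p (0.9998 each from edgeR) or an unadjusted p of 0.05, beside 0% and 3% of all genes. A test of any difference among the 5 genotypes also gave 0 of 8 at either level (0% and 2.67% of all genes). These misses leave wide intervals and do not show equal levels.

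The other TALE genes include known partners and competitors of HOX proteins. Tgif1, which encodes a TALE repressor, was at 52.2, 37.2 and 80.2 CPM in GFI1-KD HSCs, against 63.7, 31.6 and 86.5 CPM in GFI1-KI HSCs. It was at 39.7, 111 and 22.7 CPM in Gfi1-KO HSCs, against 91, 44.6 and 0.136 CPM in Gfi1-WT HSCs, so that both pairs of groups overlapped. The log2 fold changes of −0.10 (standard error 1.61) for GFI1-KD and 0.36 (standard error 1.62) for Gfi1-KO did not pass (adjusted p = 1 from edgeR). Of 9 such genes 7 were tested and 0 passed in edgeR, DESeq2 or limma-trend in any comparison. At an unadjusted p under 0.05 edgeR had 0 of them in each comparison (2.09% to 4.6% of all genes). DESeq2 had 1 of the 7 at that level, for the difference of GFI1-KD and Gfi1-KO, and limma-trend had 0. For these tools the share of all genes at that level is not given here. The median log2 fold change over the 7 genes was 0.80 for GFI1-KD and −0.23 for Gfi1-KO.

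Regulators of Hox genes, among them the MLL and Polycomb proteins, and known targets of HOXA9 and MEIS1 were read as well. The regulators Cdx1, Cdx2 and Cdx4 were at 0 in every library and were not tested. Of 25 regulators 22 were tested and 0 passed in edgeR, with 2, 1, 2, 1 and 3 at an unadjusted p under 0.05 for GFI1-KD, Gfi1-KO, GFI1-36N, GFI1-KI and the difference of GFI1-KD and Gfi1-KO (2.49%, 3.07%, 4.6%, 2.09% and 3% of all genes) and median log2 fold changes of 0.10 for GFI1-KD and −0.08 for Gfi1-KO. DESeq2 called 1 of them, Mllt3 in GFI1-36N HSCs, and limma-trend 0. Dpy30, a subunit of MLL complexes, averaged 206 CPM and Psip1, which tethers them to chromatin, 180 CPM over all libraries. Of 13 targets 13 were tested and 0 passed in edgeR, with 1, 2, 1, 0 and 1 at an unadjusted p under 0.05 in the same order (2.49%, 3.07%, 4.6%, 2.09% and 3% of all genes) and medians of 0.08 for GFI1-KD and −0.03 for Gfi1-KO. DESeq2 called Igf1 for GFI1-KD, for GFI1-36N and for the difference of GFI1-KD and Gfi1-KO, and Trib2 for GFI1-36N, and limma-trend called 0. In these 3 comparisons DESeq2 called 181, 364 and 199 of all 13358 genes. Igf1, the gene of a growth factor, was at 0 in all GFI1-KD and GFI1-36N libraries and at 0, 31.7 and 0 CPM in GFI1-KI HSCs. Its calls for GFI1-KD and GFI1-36N thus rest on GFI1-KI replicate 2. Its call for the difference also draws on 13.15, 2.92 and 0 CPM in Gfi1-KO HSCs, against 1.115, 0 and 0 CPM in Gfi1-WT HSCs. Trib2 was at 0 in all GFI1-36N libraries and at 0, 6.62 and 0 CPM in GFI1-KI HSCs, so that its call rests on GFI1-KI replicate 2. Mllt3, which helps to maintain human HSCs and is also an HSC marker, was at 201, 361 and 270 CPM in GFI1-36N HSCs, against 99.0, 95 and 46.9 CPM in GFI1-KI HSCs. Its groups did not overlap (3.3% of all genes lay wholly higher), and the log2 fold change of 1.79 (standard error 0.53) did not pass in edgeR (adjusted p = 0.981). Igf1, Mllt3 and Trib2 are named here after their values were seen. Cdk6, a cell cycle kinase gene, was at 1292, 1680 and 1750 CPM in Gfi1-KO HSCs, against 684, 731 and 1458 CPM in Gfi1-WT HSCs. Gfi1-WT replicate 3 lay within the Gfi1-KO range, and the log2 fold change of 0.72 (standard error 0.29) did not pass (adjusted p = 1 from edgeR). Cd34, a target and a progenitor marker, was at 397, 1620 and 94 CPM in Gfi1-KO HSCs, against 188, 164 and 49.4 CPM in Gfi1-WT HSCs (log2 fold change 2.40, standard error 0.76, adjusted p = 1 from edgeR). The 1620 CPM came from Gfi1-KO replicate 2, the library that stood apart. Gfi1-KO replicate 1 also lay above all Gfi1-WT libraries, and Gfi1-KO replicate 3 lay within their range.

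**Figure D4:**
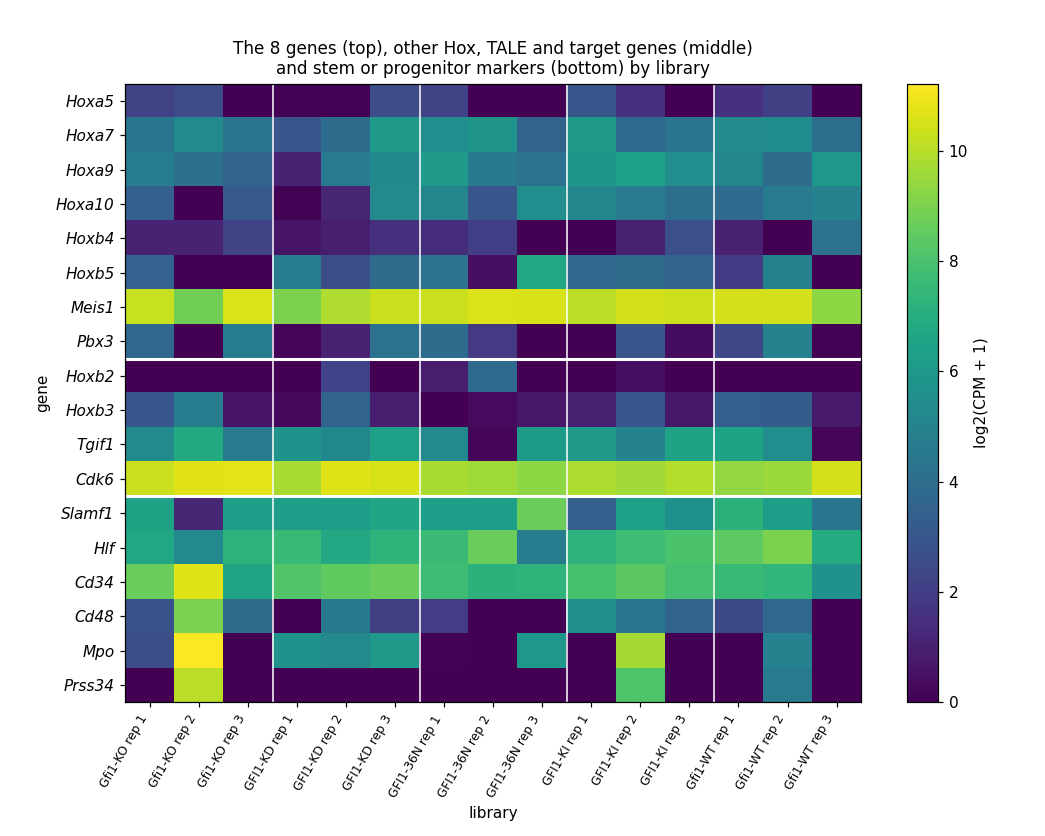
Level as log2(CPM + 1) (colour) of the 8 genes (upper block), other Hox, TALE and target genes (middle block) and stem or progenitor cell markers (lower block) in the 15 libraries (columns). Gfi1-KO replicate 2 combines the lowest Meis1 (444 CPM) with the highest Cd48 (502 CPM) and Mpo (2382 CPM).

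The genes whose pattern over the 15 libraries was most like that of the leading genes were picked as the highest rank correlations of log2 CPM among all genes tested, as a description. For Meis1 these were Zwint (Spearman's rho 0.843), Acly (0.839) and Tmem222 (0.836). For Hoxa9 they were Slc44a2 (0.893), Dnajb1 (0.886) and Marcks (0.876), and for Hoxa7 Isca1 (0.879), Gbe1 (0.874) and Zscan2 (0.856). None of these is a Hox or TALE gene.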

How the data were processed

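Reads were single-end. The estimated counts per gene and transcript, as deposited by the authors, came from Salmon with mouse cDNA of GRCm38 from Ensembl, are TPM scaled by length and library size, and are not normalized between libraries. Here they were rounded to whole counts and fitted with edgeR 4.0.16 (R 4.3.3) over all 15 libraries. TMM factors and a quasi-likelihood F test were used after filterByExpr (at least 10 counts, total at least 15), with Benjamini-Hochberg adjustment over 13358 genes and a threshold of 0.05. This replaced sleuth 0.30.0, named in the submitters' processing notes, whose input was not used here. CPM used TMM factors. TPM of genes were computed from the transcript values and GENCODE M21 lengths (99.3% to 99.7% of counts matched). Alternatives were DESeq2 1.42.0, limma-trend (limma 3.58.1), other scalings and filters, only the genotypes compared, a replicate block, transcript sums and left-out libraries. The fits were tested on simulated data. Values without a symbol, at most 0.0719% of counts, were left out.

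The 8 genes and all lists were chosen with earlier results of these data known. Named are the 8 genes, the 2 most abundant genes of each list and any gene of a list past the threshold in edgeR, the 3 genes most correlated with each of the 3 most abundant of the 8, Gfi1 and genes of the sort. Some genes that this rule names are not reported here. Other names were chosen after their values were seen.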

Additional observations from a re-analysis of the deposited data

How the results depend on the processing

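The 8 genes stayed short of an adjusted p of 0.05 in edgeR and in all 648 values recomputed under the alternatives, 4 of which had an unadjusted p under 0.05, and 565 kept their sign. These 4 have no share of all genes beside them here and are not read as a result. Hoxa9 kept its sign in all 4 comparisons, Hoxa10 in GFI1-KD and Gfi1-KO, Hoxa7 in Gfi1-KO, and Meis1 in GFI1-KD, in GFI1-36N and for the difference of GFI1-KD and Gfi1-KO. At this depth a level under 0.143 to 0.188 CPM could not be told apart from 0 in 1 library. The cause of the changes below was not tested.

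The count of all genes called was 0 with edgeR. With DESeq2 it was 181 in GFI1-KD, 196 in Gfi1-KO, 364 in GFI1-36N, 146 in GFI1-KI, 199 for the difference of GFI1-KD and Gfi1-KO and 45 for any difference. With limma-trend it was 2 in GFI1-36N and 1 for any difference, and with only the genotypes compared 1 in GFI1-36N. Leaving out each library in turn gave 0 to 1 in Gfi1-KO and for the difference of GFI1-KD and Gfi1-KO, with the 1 when Gfi1-KO replicate 1 was left out.

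Same-numbered libraries were not paired, since their deviations from the genotype means of log2 CPM hardly correlated. In these deviations 1 of 30 such pairs correlated above 0.1 (range −0.11 to 0.10), and 4 of 15 libraries correlated best with their own number. With the replicate block 0 genes were called in each comparison, as without it.

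With limma-trend the log2 fold change turned in GFI1-KD to 0.29 for Hoxb4, to −0.015 for Hoxb5, in Gfi1-KO to 0.52 for Hoxb4, in GFI1-36N to −0.12 for Hoxa10, to −0.43 for Hoxb5 and for the difference of GFI1-KD and Gfi1-KO to −0.15 for Hoxa7, to −0.12 for Hoxa10, to −0.23 for Hoxb4. With a replicate block the log2 fold change turned in GFI1-KD to 5.55 for Hoxa5, to 0.060 for Hoxa7, to −0.069 for Hoxb5, in GFI1-36N to −0.53 for Hoxa10, to 1.34 for Hoxb4, in GFI1-KI to −0.070 for Hoxb5 and for the difference of GFI1-KD and Gfi1-KO to 5.02 for Hoxa5. Without Gfi1-KO replicate 2, GFI1-KD replicate 1 and GFI1-36N replicate 3 together, an alternative chosen after seeing the data, the log2 fold change turned in GFI1-KD to 0.28 for Hoxa7, to −0.40 for Hoxb5, in Gfi1-KO to −0.029 for Hoxa5, to 0.28 for Meis1, in GFI1-36N to −0.30 for Hoxa10, to 0.16 for Hoxb4, to −0.50 for Hoxb5 and in GFI1-KI to 0.0081 for Hoxa7. Hoxa7 in GFI1-KI, near 0, turned to 0.034 with DESeq2 size factors, 0.0079 without a filter, 0.0089 with the filter of sleuth, 0.039 with only the genotypes compared and 0.034 with DESeq2. Leaving out each library in turn gave a sign that turned for these genes. In GFI1-KD it ran between −5.62 and 0.98 for Hoxa5, between −1.64 and 0.83 for Hoxa7, between −1.59 and 1.08 for Hoxb4, between −0.39 and 0.63 for Hoxb5 and between −1.85 and 5.44 for Pbx3. In Gfi1-KO it ran between −0.043 and 1.54 for Hoxa5, between −2.38 and 2.07 for Hoxb4, between −10.63 and 1.29 for Hoxb5, between −0.46 and 0.30 for Meis1 and between −0.87 and 2.56 for Pbx3. In GFI1-36N it ran between −0.30 and 0.64 for Hoxa10, between −8.77 and 0.50 for Hoxa5, between −0.27 and 1.16 for Hoxa7, between −1.33 and 1.65 for Hoxb4, between −0.50 and 2.23 for Hoxb5 and between −0.72 and 5.36 for Pbx3. In GFI1-KI it ran between −0.17 and 0.42 for Hoxa10, between −0.97 and 1.63 for Hoxa5, between −1.01 and 0.37 for Hoxa7, between −3.53 and 2.14 for Hoxb4, between −0.37 and 3.15 for Hoxb5, between −0.15 and 0.32 for Meis1 and between −6.30 and 0.11 for Pbx3. For the difference of GFI1-KD and Gfi1-KO it ran between −3.29 and 1.58 for Hoxa10, between −6.27 and 0.33 for Hoxa5, between −1.31 and 1.16 for Hoxa7, between −1.24 and 0.034 for Hoxa9, between −3.08 and 2.59 for Hoxb4, between −1.06 and 10.86 for Hoxb5 and between −2.02 and 5.29 for Pbx3. Values that kept their sign ran for Hoxa9 between −2.27 and −1.03 in GFI1-KD, −1.41 and −0.41 in Gfi1-KO, −1.65 and −0.52 in GFI1-36N and 0.38 and 1.38 in GFI1-KI. They ran for Hoxa10 between −5.18 and −0.34 in GFI1-KD and −2.43 and −1.31 in Gfi1-KO, for Hoxa7 between −0.74 and −0.066 in Gfi1-KO, and for Meis1 between −0.81 and −0.19 in GFI1-KD, 0.089 and 0.27 in GFI1-36N and −0.78 and −0.023 for the difference of GFI1-KD and Gfi1-KO. Summing transcripts moved Hoxb5 in GFI1-KI to 15.9 CPM and left the other 39 levels within 1 SD.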
